A study of Mus musculus with 4 samples.

Results

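Canonical WNT signaling was examined through 10 genes that are widely used as its feedback regulators and targets, Axin2, Lgr5, Rnf43, Znrf3, Notum, Nkd1, Lef1, Tcf7, Tcf7l2 and Sp5. They were taken by gene name from a count table of 56748 genes, and each name matched 1 row. Their expression was compared between lungs with breast cancer metastases from mice given saline and from mice given the ADC/cmLumiOpto combination.

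In the canonical pathway, WNT ligands bind Frizzled and LRP co-receptors, which stops a cytoplasmic destruction complex from degrading β-catenin, and β-catenin then enters the nucleus and activates genes together with TCF/LEF factors. Many of the activated genes are themselves brakes on the pathway, such as Axin2, Nkd1, Notum, Rnf43 and Znrf3, so their mRNA is commonly read as a report of pathway activity. In the lung, WNT signals are known to maintain alveolar type 2 progenitors, and in carcinoma they are known for roles in stemness and metastasis.

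All mice were female BALB/cJ of 7 weeks injected through the tail vein with 2000000 cells of 4T1-FLuc, a mouse triple-negative breast cancer line that expresses luciferase. Controls received saline, called PBS in the labels. The treated mice received an anti-CD276 antibody that carries mertansine (DM1), a microtubule inhibitor, together with cmLumiOpto, a gene therapy under a cfos promoter, packed in antibody-bearing exosomes, that makes cancer mitochondria lose their membrane potential once a luminescent substrate is given. The study's methods give 8 mg/kg of ADC, while the labels give 16 mg/kg and add the abbreviation Olap to the treatment, and the labels place harvest after 3 weeks. There were 2 saline and 2 ADC/cmLumiOpto samples, whereas the methods give 4 samples per group, and no group received the ADC or cmLumiOpto alone in these data. The labels name tumor cells harvested from the lung and the methods name dissociated lung tissue, and no source states which mouse each sample came from, so p-values measure only the spread between these samples.

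The samples held 15263375 to 19675436 counts in all. A detection floor of 3 counts equals 0.152 to 0.197 CPM, the count scaled to the size of the library. Markers listed for carcinoma epithelium were detected in every sample. Their summed level was 3113 and 3430 CPM with saline and 3067 and 2977 CPM with treatment. Of these 8 markers, 3 were higher in both treated samples and 2 lower. The list was led by Krt8, a keratin of simple epithelium that was among the lower ones. These are general epithelial genes, so their sum cannot tell carcinoma from lung epithelium and does not measure tumor content. Lung and stromal markers were present as well. The summed alveolar type 2 markers, led by the surfactant gene Sftpc, were 1684 and 439 CPM against 5712 and 4916 CPM, with 7 of 8 markers higher in both treated samples and 1 lower. Club cell markers, led by Scgb1a1, were 1148 and 79.5 CPM against 6198 and 2951 CPM (4 of 4 higher), and alveolar type 1 markers, led by Ager, were 375 and 221 CPM against 797 and 812 CPM (5 of 6 higher). Fibroblast markers, led by the collagen gene Col1a1, were 5154 and 3545 CPM against 1777 and 1468 CPM (6 of 8 lower, 1 higher), and proliferation markers, led by Top2a, were 1063 and 1053 CPM against 660 and 601 CPM (5 of 6 lower). T cell markers, led by Cd3g, were 43.6 and 13.6 CPM against 97.0 and 50.03 CPM (5 of 10 higher), and endothelial markers, led by Pecam1, were 451 and 367 CPM against 452 and 660 CPM (4 of 6 higher). Beside these marker counts, 28.1% of all tested genes had both treated samples above both saline samples, and 28.8% had both below. In bulk tissue, fewer cells of a type and less RNA per cell cannot be told apart. The part of these shifts in the WNT gene values was not tested.

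The main result was uneven within the set. Axin2, Lgr5, Znrf3 and Tcf7l2 were lower in both treated samples than in both saline samples, with fitted levels between 0.340 and 0.619 of the saline level. Rnf43, Notum, Nkd1, Lef1, Tcf7 and Sp5 had overlapping samples, and none of the 10 genes was higher in both treated samples. No gene in the transcriptome had an adjusted p under 0.05 in the edgeR quasi-likelihood test (0 of 15320 tested genes, 0%), where the smallest adjusted p was 0.116, and 0 of the 9 tested WNT genes passed, which cannot be read as particular to them. Sp5 was not tested because its counts were under the filter on low expression.

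At an unadjusted p under 0.05, 3 of the 9 tested genes were lower (Lgr5, Znrf3 and Tcf7l2) beside 12.2% of all tested genes, and 0 of 9 were higher beside 11.0%. Non-overlapping samples were frequent everywhere. Treated samples without exception below the saline samples were seen for 28.8% of tested genes and for 4 of the 9, and the opposite order for 28.1% of tested genes and for 0 of the 9. The median log2 fold change of the 9 genes was -0.33 (6 below 0 and 3 above 0), while the median of all tested genes was 0.028 (7359 below 0 and 7961 above 0). With 2 samples per group, an exact two-sided permutation test of a single gene cannot give a p under 0.333.

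**Figure D1:**
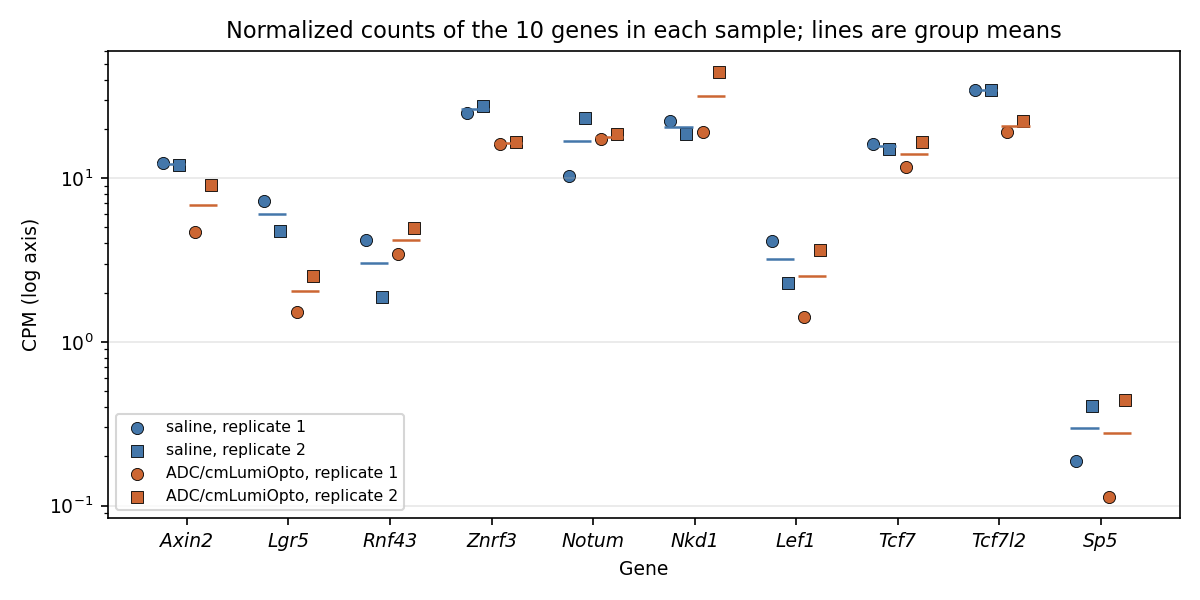
Expression of the 10 WNT genes in each sample, in CPM on a log axis, with saline in blue, ADC/cmLumiOpto in orange, circles for replicate 1, squares for replicate 2 and lines for group means. Axin2, Lgr5, Znrf3 and Tcf7l2 separate by group, and the other 6 genes overlap.

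Promoter sequence was examined because TCF/LEF factors bind the core motif CTTTGAT, which in shorter form is CTTTGA. Both forms were searched on both strands in RefSeq promoter windows of GRCm38.p6, which run from 250 bases before a start site to 50 bases from it, and a CTTTGAT match also counts as a CTTTGA match. The table of windows held 13 windows for 7 of the genes and none for Lgr5, Znrf3 and Notum. CTTTGAT occurred in 1 of the 13 windows (Sp5) beside 3.73% of 32851 windows of all genes, and CTTTGA occurred in 2 of 13 (Sp5 and Lef1) beside 16% of all windows. The windows below are those of the 2 genes with a match and of Axin2 and Tcf7l2, the genes with a window that were lower in both treated samples. For Lef1 the window with the matches is shown and the other 3 are not, and for Tcf7l2 the window of start site 1 is shown and that of start site 2, which also has no match, is not. Each is printed 5′ to 3′ on the strand of its gene, with matched letters in capitals.
Sp5, chr2:70474673-70474972, plus strand: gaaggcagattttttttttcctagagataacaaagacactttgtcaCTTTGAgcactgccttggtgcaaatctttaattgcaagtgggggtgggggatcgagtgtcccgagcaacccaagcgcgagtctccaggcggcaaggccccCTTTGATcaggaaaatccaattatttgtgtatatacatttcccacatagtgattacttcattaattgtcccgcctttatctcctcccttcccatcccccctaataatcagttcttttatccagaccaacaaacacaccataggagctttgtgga
Lef1, start site 4, chr3:131156044-131156343, plus strand: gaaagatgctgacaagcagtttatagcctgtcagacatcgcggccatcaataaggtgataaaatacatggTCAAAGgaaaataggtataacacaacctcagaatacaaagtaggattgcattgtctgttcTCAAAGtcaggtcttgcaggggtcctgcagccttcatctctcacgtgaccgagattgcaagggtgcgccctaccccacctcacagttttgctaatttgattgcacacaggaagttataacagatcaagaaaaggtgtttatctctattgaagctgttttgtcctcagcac
Axin2, chr11:108920099-108920398, plus strand: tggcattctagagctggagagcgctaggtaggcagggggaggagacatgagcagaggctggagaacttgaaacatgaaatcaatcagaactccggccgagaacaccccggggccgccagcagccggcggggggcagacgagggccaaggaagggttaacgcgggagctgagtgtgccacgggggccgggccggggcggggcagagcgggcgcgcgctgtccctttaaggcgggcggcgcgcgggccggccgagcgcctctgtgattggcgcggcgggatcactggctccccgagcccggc
Tcf7l2, start site 1, chr19:55741560-55741859, plus strand: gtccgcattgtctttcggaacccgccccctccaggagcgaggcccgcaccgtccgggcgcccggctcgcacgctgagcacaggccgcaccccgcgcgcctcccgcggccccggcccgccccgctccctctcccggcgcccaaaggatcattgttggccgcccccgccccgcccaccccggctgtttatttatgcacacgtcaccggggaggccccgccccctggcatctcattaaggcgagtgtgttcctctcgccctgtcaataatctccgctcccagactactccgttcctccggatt
The Sp5 window held CTTTGA 204 bases before the start site and CTTTGAT 104 bases before it, on the strand of the gene. In the Lef1 window the matches lay on the other strand, 180 and 120 bases before the start site, where they read TCAAAG. The Axin2 and Tcf7l2 windows held neither form, which says only that these letters are not in these windows. In expression, described next, Sp5 was near the detection floor and Lef1 overlapped between groups.

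Axin2 (ENSMUSG00000000142) is a scaffold of the β-catenin destruction complex and one of the most general WNT targets. The count table places it on the plus strand at chr11:108811175-108841609. These and the other gene positions below are as deposited. The submitters' notes name mm39 and the methods name GRCm38. None of the 10 positions was the same as in the GENCODE annotation of GRCm38. Of 52073 gene identifiers shared with that annotation, 1472 had the same start and end. The deposited positions are thus not those of GRCm38, and reading them as mm39 rests on the submitters' notes alone. Axin2 measured 12.4 and 12.0 CPM in saline samples 1 and 2, and 4.70 and 9.02 CPM in ADC/cmLumiOpto samples 1 and 2. Both treated samples were lower, but they differed from each other by 1.92-fold, more than for 89.1% of tested genes, while the saline samples differed by 1.04-fold. The log2 fold change was -0.83 (SE 0.37, 95% interval -1.71 to 0.053), with an adjusted p of 0.235 in the edgeR quasi-likelihood test.

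Among receptors, Lgr5 (ENSMUSG00000020140, minus strand, chr10:115286216-115423685), an R-spondin receptor that marks stem cells of several epithelia, was the member with the largest difference. Its counts were 116 and 71 with saline and 27 and 52 with treatment, or 7.25 and 4.79 CPM against 1.53 and 2.54 CPM. The highest treated sample was below the lowest saline sample, and the means were 6.02 ± 1.74 with saline and 2.03 ± 0.711 CPM with treatment (SD, n = 2). The log2 fold change was -1.56 (SE 0.44, 95% interval -2.62 to -0.49), which had an unadjusted p of 0.011 and an adjusted p of 0.134 in the edgeR quasi-likelihood test.

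Znrf3 and Rnf43 encode paired membrane ubiquitin ligases that remove Frizzled from the cell surface and that R-spondin with its LGR receptors inhibits. Znrf3 (ENSMUSG00000041961, minus strand, chr11:5226324-5394847) measured 25.1 and 27.6 CPM with saline, and 16.1 and 16.5 CPM with treatment. Its treated samples were nearly equal, with a ratio of 1.03, and the groups were well apart. The log2 fold change of Znrf3 was -0.69 (SE 0.20, 95% interval -1.16 to -0.22), with an unadjusted p of 0.011 and an adjusted p of 0.133 by edgeR quasi-likelihood. Rnf43 (ENSMUSG00000034177, plus strand, chr11:87553548-87626365) measured 4.19 and 1.89 CPM with saline and 3.46 and 4.93 CPM with treatment. Its groups overlapped, the saline samples differed by 2.22-fold, and its log2 fold change was 0.46 (SE 0.50, 95% interval -0.73 to 1.65, edgeR quasi-likelihood adjusted p = 0.603). It was 1.14 without saline replicate 1 and 0.0045 without saline replicate 2. The difference between the changes of these ligases was not tested.

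Notum, a secreted enzyme that removes the lipid WNT ligands need for receptor binding, and Nkd1, a cytoplasmic inhibitor that binds Dishevelled, had overlapping groups. Notum (ENSMUSG00000042988, minus strand, chr11:120544614-120552001) measured 10.3 and 23.3 CPM with saline, and 17.3 and 18.6 CPM with treatment, so that both treated samples lay between the saline samples. Its log2 fold change was 0.10 (SE 0.38, 95% interval -0.82 to 1.02, edgeR quasi-likelihood adjusted p = 0.899), and it was -0.39 without saline replicate 1. Nkd1 (ENSMUSG00000031661, plus strand, chr8:89247982-89321512) measured 22.4 and 18.7 CPM with saline, and 19.0 and 44.5 CPM with treatment. Treated sample 1 lay within the saline range and treated sample 2 was the highest of all, a 2.34-fold difference between treated samples that exceeded that of 93.3% of tested genes. The log2 fold change of Nkd1 was 0.63 (SE 0.39, 95% interval -0.31 to 1.56, edgeR quasi-likelihood adjusted p = 0.366), and it was -0.12 without ADC/cmLumiOpto replicate 2, so its direction rested on that sample.

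The TCF/LEF factors are the DNA-binding partners of β-catenin, and Tcf7 and Lef1 are also known as regulators of T cells. Tcf7l2 (ENSMUSG00000024985, plus strand, chr19:55730252-55922086), the form best known from epithelia, measured 34.7 and 34.4 CPM with saline, and 19.3 and 22.3 CPM with treatment. Its saline samples were almost identical, with a ratio of 1.01, and both treated samples were lower. The log2 fold change of Tcf7l2 was -0.73 (SE 0.19, 95% interval -1.18 to -0.29), with an unadjusted p of 0.0064 and an adjusted p of 0.123 in the edgeR quasi-likelihood test. Tcf7 (ENSMUSG00000000782, minus strand, chr11:52143198-52174158) measured 16.3 and 15.2 CPM with saline, and 11.7 and 16.5 CPM with treatment, so treated sample 1 was the lowest and treated sample 2 the highest. Its log2 fold change was -0.15 (SE 0.26, 95% interval -0.78 to 0.48, edgeR quasi-likelihood adjusted p = 0.757), and 0.075 without ADC/cmLumiOpto replicate 1. Lef1 (ENSMUSG00000027985, plus strand, chr3:130904120-131018005) measured 4.13 and 2.29 CPM with saline, and 1.42 and 3.66 CPM with treatment, and its groups overlapped. Its log2 fold change was -0.33 (SE 0.58, 95% interval -1.74 to 1.07, edgeR quasi-likelihood adjusted p = 0.761), and it was 0.14 without saline replicate 1 and 0.19 without ADC/cmLumiOpto replicate 1. Summed T cell markers were 43.6 and 13.6 CPM with saline, where Tcf7 and Lef1 were also higher in sample 1, and 97.0 and 50.03 CPM with treatment, where both genes were higher in sample 2. The part of T cells in these values was not tested.

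Sp5 (ENSMUSG00000075304, plus strand, chr2:70305267-70308073), a zinc-finger repressor that is a direct WNT target in embryos, had 3 and 6 counts with saline and 2 and 9 counts with treatment. These counts lie around the floor of 3 counts, so a difference was not detectable at this depth and no fold change is given.

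**Figure D2:**
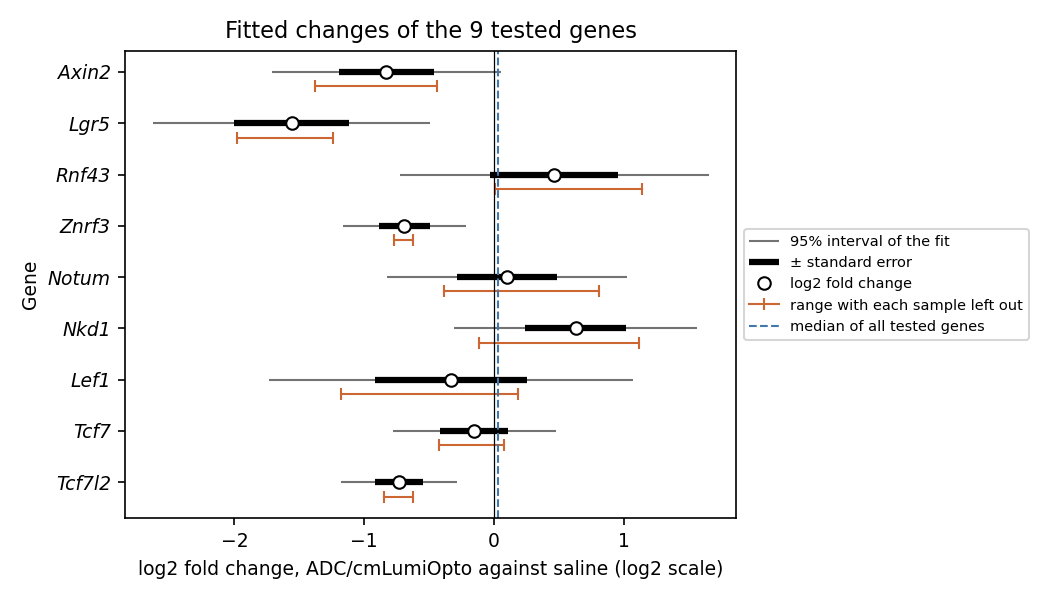
Log2 fold changes of the 9 tested WNT genes, ADC/cmLumiOpto against saline, with standard errors (thick), 95% intervals (thin) and the range when each sample in turn is left out (orange), and with the median of all tested genes dashed. The intervals of Lgr5, Znrf3 and Tcf7l2 lie below 0, that of Axin2 reaches 0.053, and the orange ranges of Notum, Nkd1, Lef1 and Tcf7 cross 0.

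The calls of Lgr5 and Tcf7l2 depended on the test. DESeq2 called both lower (adjusted p = 0.0489 for Lgr5 and 0.0397 for Tcf7l2), which is 2 of 9 beside 5.72% of 13537 genes called lower. The edgeR exact test called Lgr5 (adjusted p = 0.0382) and not Tcf7l2 (adjusted p = 0.0502), 1 of 9 beside 3.68% of genes called lower. Without the filter on low expression, the edgeR quasi-likelihood test called Lgr5 (adjusted p = 0.00997) and Tcf7l2 (adjusted p = 0.0329), 2 of 10 beside 4.05% of 25563 genes called lower. Znrf3 and Axin2 were called under none of these 3 alternatives.

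Divided by the listed gene length, the CPM of the set covered a wide range. In the saline samples Notum was the highest at 6.96 ± 3.82 CPM per kb (SD, n = 2), followed by Tcf7 (5.20), Nkd1 (4.52), Tcf7l2 (3.88), Znrf3 (3.34), Axin2 (2.22), Lgr5 (0.586), Rnf43 (0.463), Lef1 (0.365) and Sp5 (0.141). The ranges of Notum and Tcf7, of Lgr5 and Rnf43, and of Rnf43 and Lef1 overlapped, and the other neighbors were apart. In the treated samples the order began with Notum (7.45), Nkd1 (6.97), Tcf7 (4.68), Tcf7l2 (2.34), Znrf3 (2.07) and Axin2 (1.25), and ended with Rnf43 (0.639), Lef1 (0.289), Lgr5 (0.198) and Sp5 (0.131) CPM per kb. Here the ranges of Notum and Nkd1, Nkd1 and Tcf7, Lef1 and Lgr5, and Lgr5 and Sp5 overlapped. Lgr5 was thus above Rnf43 by mean with saline, with overlapping ranges, and below it with treatment, with ranges apart.

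The treated samples also differed from each other in the same direction for every gene of the set. All 10 genes had a higher CPM in treated sample 2 than in treated sample 1, as did 52% of all tested genes, whereas 3 of 10 were higher in saline sample 2 than in saline sample 1 (49.5% of all tested genes). The ratio between the treated samples ran from 1.03 for Znrf3 to 2.58 for Lef1 among tested genes. Club cell markers were lower in treated sample 2 (2951 against 6198 CPM), as were T cell markers (50.03 against 97.0 CPM). Endothelial markers were higher in treated sample 2 (660 against 452 CPM), and the sums of the other marker lists differed less by ratio. The part of these cell types in this order was not tested.

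The other canonical pathway genes were read from a list of 94, of which 73 were tested. By log2 fold change, 54 of them were below 0 and 19 above, with a median of -0.42, beside 7359 below and 7961 above among all tested genes. None had an adjusted p under 0.05 in the edgeR quasi-likelihood test (0 of 73). At an unadjusted p under 0.05, 27 of 73 were lower and 3 higher, and 40 had both treated samples below both saline samples and 11 above, to be read against 12.2%, 11.0%, 28.8% and 28.1% of all tested genes. DESeq2 called 17 of 67 lower beside 5.72% of all genes it gave an adjusted p, the edgeR exact test 14 of 73 beside 3.68%, and the test without the filter 22 of 88 beside 4.05%. The 3 genes that were higher at an unadjusted p under 0.05, named after their values were seen, were the ligands Wnt10a and Wnt3a and the β-catenin antagonist Cby1. Wnt10a measured 36.3 and 28.4 CPM with saline and 50.7 and 51.6 CPM with treatment, Cby1 measured 21.8 and 26.2 CPM against 35.5 and 33.8 CPM, and Wnt3a had few counts, 4 and 0 against 17 and 25.

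Extracellular inhibitors had a median of -1.04, the lowest among the 7 roles of the list, and 7 of 7 tested genes were below 0, beside 7359 of 15320 of all tested genes. In 6 of the 7 both treated samples were lower than both saline samples, an order seen for 28.8% of all tested genes. Sfrp1, a decoy that binds WNT ligands, measured 55.5 and 69.2 CPM with saline and 34.6 and 24.7 CPM with treatment (log2 fold change -1.07, SE 0.23, edgeR quasi-likelihood adjusted p = 0.116). Apcdd1, a membrane inhibitor that is itself a WNT target, measured 45.3 and 65.7 CPM against 25.9 and 28.2 CPM (log2 fold change -1.04, SE 0.22, edgeR quasi-likelihood adjusted p = 0.116). The remaining 8 of the 15 listed inhibitors were under the filter, and 2 of them are named here after their counts were seen. Wif1 had 4 and 2 counts with saline and 59 and 9 with treatment, so both treated samples were higher. Sfrp4 had 3 and 1 counts against 1 and 1, with both treated samples lower in CPM.

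Of the ligands and their secretion genes, 9 of 15 were below 0 and 6 above, with a median of -0.04, beside 7359 below and 7961 above among all tested genes. Wnt4 measured 42.6 and 49.7 CPM with saline and 7.48 and 13.9 CPM with treatment (log2 fold change -2.11, SE 0.31, edgeR quasi-likelihood adjusted p = 0.116). Wnt7b measured 389 and 466 CPM against 283 and 229 CPM (log2 fold change -0.74, SE 0.19). In the R-spondin group 3 of 4 tested genes were below 0, and the Lgr5 relatives differed in size of change: Lgr6 measured 192 and 325 CPM against 138 and 89.2 CPM (log2 fold change -1.18, SE 0.32), and Lgr4 measured 17.6 and 16.7 CPM against 14.1 and 11.6 CPM (log2 fold change -0.42, SE 0.24). Lgr4 had an adjusted p of 0.322 in the edgeR quasi-likelihood test.

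Of the 11 tested receptors, 8 were below 0 (median -0.43), among them Fzd1 at 84.7 and 57.3 CPM against 41.5 and 37.3 CPM (log2 fold change -0.85, SE 0.22) and the co-receptor Lrp6 at 122 and 116 CPM against 85.8 and 80.6 CPM (log2 fold change -0.51, SE 0.16). In the cytoplasm 12 of 14 genes were below 0 (median -0.39). Both the receptor and the cytoplasmic counts stand beside 7359 of 15320 tested genes below 0. Ctnnb1, which encodes β-catenin itself, measured 962 and 1072 CPM with saline and 618 and 678 CPM with treatment (log2 fold change -0.65, SE 0.17, edgeR quasi-likelihood adjusted p = 0.123). Gsk3b, a kinase that marks β-catenin for degradation, had a log2 fold change of -0.85 (SE 0.21), and Axin1, the constitutive relative of Axin2, of -0.46 (SE 0.19). Tnks, a tankyrase that directs Axin proteins to degradation, had -1.03 (SE 0.20), and Nkd2, the relative of Nkd1, had 0.66 (SE 0.46) with both treated samples above both saline samples.

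Nuclear partners were split, with 7 of 11 below 0 and 4 above (median -0.06), beside 7359 of 15320 of all tested genes below 0. Tcf7l1, the remaining TCF/LEF factor and mainly a repressor, measured 13.9 and 16.1 CPM against 8.10 and 7.07 CPM (log2 fold change -0.99, SE 0.26), and Bcl9l, a β-catenin co-activator, had -0.69 (SE 0.23). Among 11 tested genes known as targets in other tissues, 8 were below 0 (median -0.66). Sox9, a factor of progenitor cells, measured 64.0 and 72.8 CPM against 40.0 and 38.0 CPM (log2 fold change -0.81, SE 0.16), and Fosl1, an AP-1 subunit, measured 14.5 and 19.7 CPM against 6.12 and 6.53 CPM (log2 fold change -1.43, SE 0.28).

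**Figure D3:**
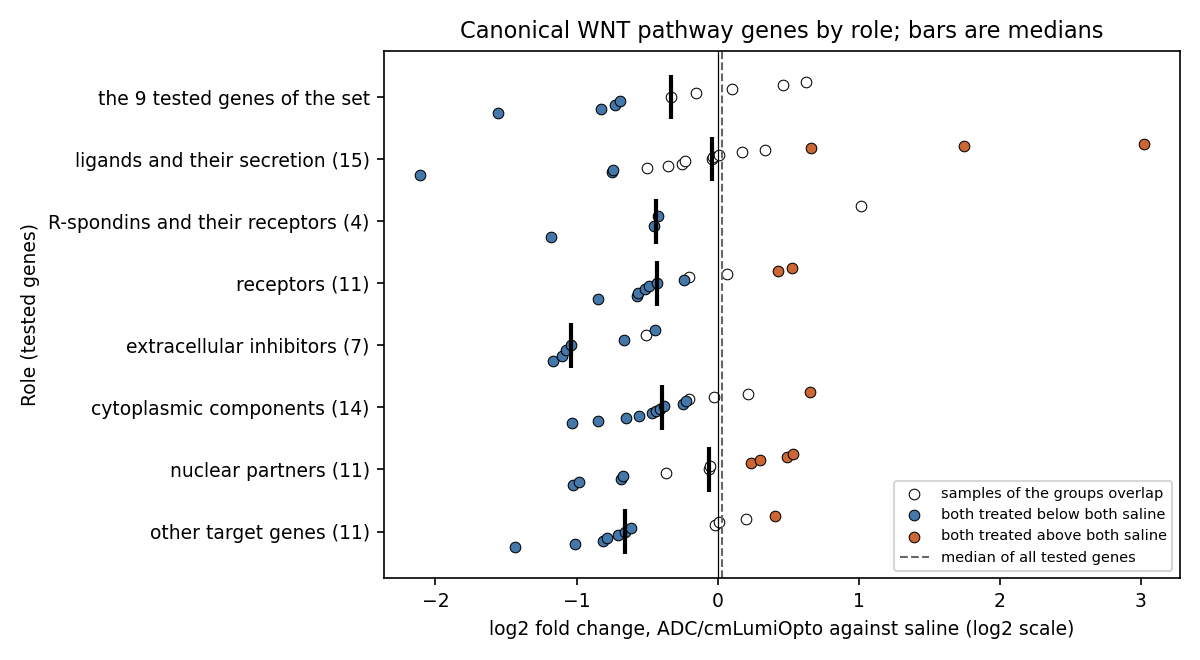
Log2 fold changes of tested canonical WNT genes by role, ADC/cmLumiOpto against saline, with medians as bars, genes whose samples do not overlap filled (blue lower, orange higher) and the median of all tested genes dashed. The median of the extracellular inhibitors is -1.04, and those of ligands and nuclear partners are -0.04 and -0.06.

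Long genes were lower than short genes across the whole transcriptome, with Spearman's rho of -0.34 between log2 fold change and listed gene length across 15320 genes that do not count as independent replicates. Genes of about the length of Lgr5 (10264 bases) had a median log2 fold change of -0.25, those like Tcf7l2 (8894 bases) and Lef1 (8788 bases) -0.24, those like Znrf3 (7893 bases) -0.17 and those like Axin2 (5506 bases) -0.07. With this trend removed, the log2 fold changes were -1.31 (SE 0.42) for Lgr5, -0.51 (SE 0.17) for Tcf7l2, -0.50 (SE 0.19) for Znrf3 and -0.75 (SE 0.35) for Axin2, so each stayed below 0 and became smaller in size. Notum, one of the shortest at 2408 bases, went from 0.10 to -0.069 (SE 0.39). The other pathway genes were not set against genes of like length, so the part of this trend in their counts and medians was not tested. What the length trend comes from was not tested.

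**Figure D4:**
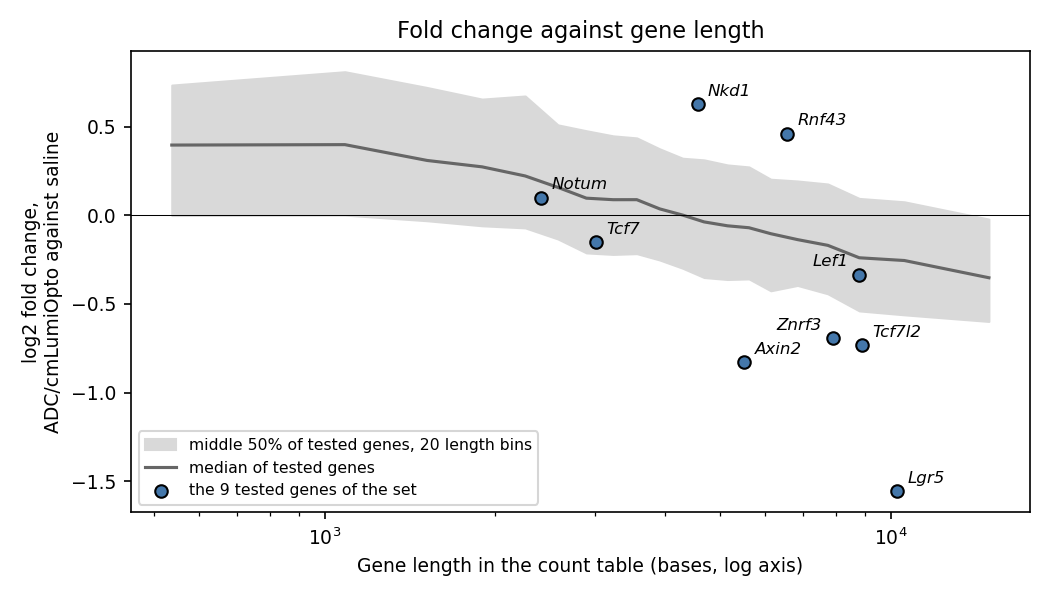
Log2 fold change, ADC/cmLumiOpto against saline, against gene length in bases on a log axis, with the median and middle 50% of tested genes in 20 length bins in gray and the 9 tested WNT genes as points. Lgr5 at -1.56, Axin2 at -0.83, Tcf7l2 at -0.73 and Znrf3 at -0.69 lie below the gray band, and Nkd1 at 0.63 and Rnf43 at 0.46 lie above it.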

How the data were processed

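Poly(A) RNA was sequenced at Novogene. In the deposited table, 1 for all samples, the values are raw counts that the authors made by assigning reads to genes, not normalized. The submitters' processing notes name HISAT2, HISAT and TopHat2 without versions, and the genome build mm39, whereas the methods name GRCm38. The program that counted reads is not given in the sources used here. The library protocol does not say whether strand was kept, so reads of a gene and of an antisense or overlapping partner cannot be told apart. The samples were grouped by title.

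The tests were run with edgeR 4.0.16 under R 4.3.3. Genes had to pass filterByExpr (minimum count 10, minimum total 15), which left 15320 genes. TMM normalization (factors 0.973 to 1.04), estimateDisp, glmQLFit and glmQLFTest were run over all 4 samples, with Benjamini-Hochberg adjustment over all tested genes and a threshold of 0.05. The prior count for log2 fold changes was 0.125, standard errors and 95% intervals came from the same fit, and CPM used TMM-scaled library sizes except that the floor of 3 counts used raw totals. CPM per kb divides by the listed gene length. The floor covers counting error only. The alternatives were DESeq2 1.42.0, the exact test of edgeR, upper-quartile factors, library size alone, all genes with at least 1 count, the replicate number as a block, a length trend removed (lowess span 0.3), a prior count of 2, and each sample left out in turn. In the last fits the lone sample of a group is assumed to vary like the other group. The scripts were tested on simulated data.

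The WNT genes and the pathway and marker lists were chosen with earlier results of these data known. Named pathway genes were Ctnnb1, Axin1, Tcf7l1, Lgr4, Nkd2 and, for each role, the 2 tested genes with the smallest unadjusted p. For marker lists the most abundant gene is named. Promoter sequences are RefSeq windows of GRCm38.p6.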

Additional observations from a re-analysis of the deposited data

How the results depend on the processing

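Over all tested genes, the count with an adjusted p under 0.05 went from 0 to 1353 with DESeq2, 1170 with the edgeR exact test, 2259 without the filter and 607 with the replicate block, and was 0 to 218 when single samples were dropped. Of the tested WNT genes, 0 of 9 were called in the edgeR quasi-likelihood test, 2 of 9 with DESeq2, 1 of 9 with the exact test and 2 of 10 without the filter. Of the pathway list, 17 of 67 were called with DESeq2, 15 of 73 with the exact test, 25 of 88 without the filter and 7 of 73 with the replicate block. These counts take both directions, whereas those given earlier for the list under the alternatives were of lower genes only. The cause of the differences between settings was not tested. The sources used here do not say whether same-numbered samples are paired. The deviations of same-numbered samples from their group means correlated at 0.0985. With 2 samples per group these deviations mirror each other, so this value cannot show whether samples are paired. The replicate block called 0 of the 9 WNT genes. Counts and calls under the other normalizations, the length correction and the other prior count stayed the same.

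With DESeq2 size factors, without TMM and with upper-quartile factors, 4 WNT genes were lower in both treated samples. The number was also 4 without the filter and with the length trend removed. With a sample left out, a lone sample in a group separates more easily, so that count is not comparable and is not given. The count was not run with the replicate block. The log2 fold change of Notum was -0.069 with the length trend removed and -0.39 to 0.81 when single samples were dropped. The same range was -0.12 to 1.11 for Nkd1, -1.18 to 0.19 for Lef1 and -0.43 to 0.075 for Tcf7. The ranges of Axin2 (-1.38 to -0.44), Lgr5 (-1.98 to -1.24), Znrf3 (-0.77 to -0.62) and Tcf7l2 (-0.85 to -0.63) stayed below 0. Rnf43 ranged from 0.0045 without saline replicate 2 to 1.14 without saline replicate 1. Depth limits Sp5, whose counts lie around the floor.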
